A study of Mus musculus with 14 samples.

Results

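The proteasome is the main protein-degrading machine of the cytosol and nucleus. Its 20S core is a barrel of alpha and beta subunits in which 3 beta subunits carry the proteolytic sites, and its 19S cap recognises ubiquitinated proteins, unfolds them with a ring of ATPases and feeds them into the barrel. In cells exposed to interferon, and constitutively in many leukocytes, Psmb9, Psmb8 and Psmb10 take the places of the constitutive catalytic subunits Psmb6, Psmb5 and Psmb7, giving the immunoproteasome, which is known for its part in making peptides for presentation on class I major histocompatibility molecules. These genes were taken as all symbols of the expression table that begin with Psm, a letter from a to g and a digit. There were 47 of them among 10980 genes: 14 of the 20S core (7 alpha, 7 constitutive beta), 5 immunoproteasome members (the 3 inducible catalytic subunits and the PA28 activator subunits Psme1 and Psme2), 17 of the 19S cap (6 ATPases, 11 others) and 10 assembly factors and regulators. The last, Psmc3ip, is a meiotic recombination factor that shares only the prefix and was counted apart.

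RNA came from back skin of wild-type C57BL/6 mice whose fur had been depilated, taken through its whole thickness at 0.5, 2, 6, 12 and 24 h after irradiation with mixed ultraviolet (UV) light, and from unirradiated skin (0 h). The times 2 and 6 h had 3 libraries each, and 0.5, 12 and 24 h and unirradiated skin had 2 each. Values are FPKM, fragments scaled to transcript length and to the mapped total of the library, as the authors deposited them. The UV dose, the age and sex of the mice, and whether libraries came from separate animals were not given in the sources used here, so the p-values measure a spread between samples that may in part be technical.

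The 14 libraries fell into 3 sets by number format and header spelling: set 1 holds 1 library of every time, set 2 holds 0, 2, 6, 12 and 24 h, and set 3 holds 0.5, 2 and 6 h with no unirradiated library. The format did not tell whether 1 unirradiated library belonged to set 2 or 3, and it was placed in set 2 by its correlation across genes (mean r 0.964 with set 2 and 0.888 with set 3). The columns do not carry the replicate numbers of the sample titles, which number the 0.5 h samples 2 and 3. The titles have replicates 1 and 2 at 0, 12 and 24 h, and 1 to 3 at 2 and 6 h. The times of the sets would match these titles if set 1 were replicate 2, set 2 replicate 1 and set 3 replicate 3. Whether they are the same libraries could not be checked, so each fitted value, within-set percentage and call rests on sets inferred from the table. Whole reads could be recovered in sets 2 and 3 and came to 12327907 to 15550419 per library; the depth of set 1 is unknown. All 47 genes were above 0 in all 14 libraries, and the fewest recovered reads of a member were the 60 of Psmb9 in 1 library. The 8 measured keratinocyte markers summed to 2893 to 8514 FPKM per library, the 7 fibroblast markers to 949 to 5198 FPKM and the 18 skeletal muscle markers to 3382 to 9705 FPKM. None of them was at 0, so the full-thickness samples held muscle transcripts besides those of keratinocytes and fibroblasts. Sets differed in level for some members: Psmb5 was lower by a log2 difference of -1.47 in set 2 against set 1, and Psmc6 and Psme4 by -1.54 and -1.38 in set 3 against set 1. For this reason the library set was a term in each fit. In what follows a gene rose or fell at a time if limma's adjusted p (Benjamini-Hochberg over 10980 genes) was under 0.05 for UV against unirradiated skin on the log2(FPKM + 1) scale, a scale that understates changes of low genes; fold changes are log2 values from that fit with their standard error (SE).

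A single member passed that test. Psmb9, the inducible counterpart of the caspase-like subunit, fell by 0.999 (SE 0.21) at 6 h and fell by 1.30 (SE 0.23) at 12 h on the log2 scale, with adjusted p of 0.0319 and 0.0119. The other 46 members did not pass at any time. At 0.5 h 0 of 47 members passed, where 0.1% of all genes did (0.00911% rose, 0.0911% fell). At 2 h 0 passed, against 2.79% of all genes (0.228% rose, 2.56% fell). At 6 h 1 passed, against 4.32% of all genes (0.902% rose, 3.42% fell). At 12 h 1 passed, against 3.81% (0.574% rose, 3.23% fell), and at 24 h 0 passed, against 2.19% (0.328% rose, 1.87% fell). At an unadjusted p under 0.05 the counts were 7, 6, 6, 4 and 8 of 47 from 0.5 to 24 h, or 14.9%, 12.8%, 12.8%, 8.51% and 17.02% of the members, where 10.1%, 21.6%, 22.0%, 18.1% and 12.1% of all genes were under it. The members' share was thus above that of all genes at 0.5 and 24 h and below it at 2, 6 and 12 h, with no test of either difference. In limma's F test over all times, Psmb9 was the 1 member past the threshold (adjusted p = 0.0465), where 4.92% of all genes passed. That call was kept in 3 of 14 fits that left out 1 library (the set 3 library at 2 h, or the 6 h libraries of set 1 or set 3; limma adjusted p = 0.0197, 0.0473 and 0.0138) and lost in the other 11 (up to 0.164), and it was lost in 6 of 10 other settings.

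Psmb9 stood at 25.4 FPKM in unirradiated skin and 19.03, 14.97, 14.9, 10.5 and 17.7 FPKM from 0.5 to 24 h in set 1. In set 2 Psmb9 was at 16.6 FPKM in unirradiated skin and 9.70, 8.47, 5.67 and 8.89 FPKM from 2 to 24 h, and in set 3 at 14.1, 17.3 and 7.03 FPKM from 0.5 to 6 h. The 3 libraries at 6 h and the 2 at 12 h lay below both unirradiated libraries, and the groups overlapped at the other times. In RNA of whole skin, fewer cells of a type that express the gene and less RNA per cell cannot be told apart. Within a set, Psmb9 at 12 h was 41.5% of its unirradiated library in set 1 and 34.1% in set 2, and at 24 h it was 69.8% and 53.5%. In recovered reads of set 2, Psmb9 had 60 reads at 12 h and 182 in unirradiated skin, or 4.72 CPM (95% exact Poisson interval 3.60 to 6.08) and 13.9 CPM (11.98 to 16.1). CPM here are reads scaled to the recovered total, and the intervals cover counting error only. The fitted changes at 0.5, 2 and 24 h were -0.46, -0.54 and -0.66, none past the test.

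Whether Psmb9 was called changed when single libraries were left out, but so did the number of calls in the whole table. At 6 h, 474 genes passed in the fit of all 14 libraries, 2 without the 6 h library of set 2 and 960 without that of set 3. A lost call in these fits is thus not particular to Psmb9. At 12 h the call was lost without either 0 h library (adjusted p = 0.0645 for set 1, 0.120 for set 2) or either 12 h library (0.104 for set 1, 0.118 for set 2), and it was kept in the other 10 of 14 limma fits that left out 1 library. At 6 h it was lost without the same 0 h libraries (adjusted p = 0.118 without that of set 1, 0.255 without that of set 2) or 12 h libraries (0.0513 and 0.0511). It was lost there also without either 0.5 h library (0.0581 for set 1, 0.0574 for set 3) or the set 2 library at 6 h (0.0890). The fold change stayed between -1.14 and -0.81 at 6 h and between -1.38 and -1.21 at 12 h in these fits. Without the set term the changes were as large, -1.02 at 6 h and -1.30 at 12 h, but Psmb9 was not called (limma adjusted p = 0.815 and 0.665), and in that fit 0 of the 10980 genes passed at any of the 5 times.

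Psmb9 lies on the minus strand of chromosome 17 at 34181987 to 34187764 (GRCm38, GENCODE M21) in the class II region of the major histocompatibility complex, head to head with Tap1, which encodes a subunit of the peptide transporter. The annotated genes overlap by 212 bases at 34187553 to 34187764, and as the strandedness of the libraries was not given in the sources used here, reads from this stretch cannot be assigned to either gene. Psmb8 follows at 34197721 to 34201454 on the plus strand of chromosome 17. The constitutive counterparts lie elsewhere, Psmb6 on chromosome 11 and Psmb5 on chromosome 14. The 250 bases before the RefSeq start of these 4 genes (RefSeq, GRCm38.p6) are shown because their transcripts form the exchange pairs compared here. By the GENCODE positions the Psmb9 and Psmb8 windows lie wholly inside their genes, and the Psmb9 window reaches into the overlap with Tap1. The Psmb5 window runs partly into its gene and the Psmb6 window lies before it. Sequence upstream of the GENCODE starts of Psmb9 and Psmb8 was thus not searched. The motifs searched on both strands were the interferon-gamma-activated site TTCNNNGAA, the interferon regulatory factor motif (a pair of GAAA with NN between them), the CCAAT box CCAAT and the antioxidant response element TGACNNNGC. Capitals mark each match.
Psmb9, chr17:34187331-34187580, minus strand: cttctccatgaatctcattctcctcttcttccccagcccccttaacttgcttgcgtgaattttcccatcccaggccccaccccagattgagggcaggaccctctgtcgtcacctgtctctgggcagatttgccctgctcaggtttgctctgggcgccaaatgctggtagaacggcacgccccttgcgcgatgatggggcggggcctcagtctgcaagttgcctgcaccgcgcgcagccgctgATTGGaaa
Psmb6, chr11:70525107-70525356, plus strand: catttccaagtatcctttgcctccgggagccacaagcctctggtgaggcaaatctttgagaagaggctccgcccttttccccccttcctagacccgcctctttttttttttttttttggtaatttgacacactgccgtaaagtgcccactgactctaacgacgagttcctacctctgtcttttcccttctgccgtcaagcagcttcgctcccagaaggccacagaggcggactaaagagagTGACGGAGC
Psmb8, chr17:34197945-34198194, plus strand: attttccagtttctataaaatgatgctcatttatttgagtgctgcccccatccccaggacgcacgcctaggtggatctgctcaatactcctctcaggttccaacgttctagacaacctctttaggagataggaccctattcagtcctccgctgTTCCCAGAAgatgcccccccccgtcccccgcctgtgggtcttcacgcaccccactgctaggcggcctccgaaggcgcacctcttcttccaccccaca
Psmb5, chr14:54617996-54618245, minus strand: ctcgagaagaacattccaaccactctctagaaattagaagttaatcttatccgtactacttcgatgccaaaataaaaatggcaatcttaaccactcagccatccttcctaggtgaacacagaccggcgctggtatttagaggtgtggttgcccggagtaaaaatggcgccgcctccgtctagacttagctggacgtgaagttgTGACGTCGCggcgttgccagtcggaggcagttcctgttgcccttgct
The Psmb9 window held a CCAAT box read from the other strand (ATTGG) at 8 to 4 bases before the start, and the Psmb8 window the activated site TTCCCAGAA at 97 to 89 bases. Both constitutive windows held the antioxidant element, as TGACGGAGC at 9 to 1 bases before Psmb6 and as TGACGTCGC at 47 to 39 bases before Psmb5. Of 32851 promoter windows of this length, 7.02% held the activated site, 2.98% the regulatory factor motif, 33.9% the CCAAT box and 10.2% the antioxidant element. Counted per gene, as for the members, 8.13%, 3.46%, 37.5% and 11.5% of 27025 genes held them. Among the 40 members with a window, 2, 3, 14 and 5 held them in that order. These are matches of letters, not shown sites of binding.

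Psmb8, the inducible chymotrypsin-like subunit, stood at 27.9 FPKM in unirradiated skin and 17.6, 18.9, 19.4, 17.3 and 19.9 FPKM from 0.5 to 24 h in set 1. In set 2 Psmb8 was at 15.3 FPKM in unirradiated skin and 12.8, 9.82, 8.97 and 13.1 FPKM from 2 to 24 h, and in set 3 at 18.8, 24.8 and 12.7 FPKM from 0.5 to 6 h. In sets 1 and 2 it was lower than the unirradiated library of its set at each time, with fitted changes of -0.52, -0.28, -0.69, -0.69 and -0.34 from 0.5 to 24 h (SE 0.17 to 0.20), and did not pass the test (adjusted p = 0.0537 at 6 h and 0.0705 at 12 h). At 6 h Psmb8 passed in 2 of 14 limma fits that left out 1 library and not in the other 12. They were those without the 6 h library of set 1 (-0.87, adjusted p = 0.0384) or of set 3 (-0.55, 0.0266), where 261 and 960 genes of the table passed. At 12 h it passed in 3 of 14 and not in the other 11. At -0.69 in each of the 3, it passed without the set 3 library of 2 h (limma adjusted p = 0.0472) or without either 6 h library of sets 1 (0.0404) and 3 (0.0104). There 428, 497 and 814 genes of the table passed. Psmb10, the inducible trypsin-like subunit, stood at 10.5 FPKM in unirradiated skin and 10.7, 11.2, 10.1, 8.84 and 11.4 FPKM from 0.5 to 24 h in set 1. In set 2 Psmb10 was at 11.2 FPKM in unirradiated skin and 8.72, 4.88, 8.88 and 10.9 FPKM from 2 to 24 h, and in set 3 at 13.7, 17.7 and 9.08 FPKM from 0.5 to 6 h. Its fitted changes were -0.17, -0.04, -0.62, -0.27 and 0.04 from 0.5 to 24 h (SE 0.21 to 0.24), none past the test. At 6 h its set 2 library was at 43.4% of the unirradiated one and its set 1 library at 96.5%, and the libraries at 6 and 12 h were all below both unirradiated ones. Psmb10 passed at 6 h in 1 of 14 fits that left out 1 library and not in the other 13. It was the fit without the 6 h library of set 1 (-0.92, limma adjusted p = 0.0270). At 2 h its set 3 library was the highest of all 14 at 17.7 FPKM.

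The PA28 subunits, which form a ring that opens the core and are interferon-inducible as well, did not pass the test at any time. Psme1 stood at 90.7 FPKM in unirradiated skin and 86.4, 87.1, 100.5, 84.1 and 89.2 FPKM from 0.5 to 24 h in set 1. In set 2 Psme1 was at 65.7 FPKM in unirradiated skin and 68.9, 68.6, 76.3 and 77.2 FPKM from 2 to 24 h, and in set 3 at 117, 114 and 89.6 FPKM from 0.5 to 6 h, with fitted changes of 0.10, 0.05, 0.01, 0.05 and 0.10 from 0.5 to 24 h (SE 0.14 to 0.16). Psme2 stood at 94.6 FPKM in unirradiated skin and 96.7, 95.2, 95.9, 89.1 and 103 FPKM from 0.5 to 24 h in set 1. In set 2 Psme2 was at 58.8 FPKM in unirradiated skin and 54.7, 54.5, 59.6 and 55.2 FPKM from 2 to 24 h, and in set 3 at 118, 92.9 and 59.4 FPKM from 0.5 to 6 h, with fitted changes of 0.23, 0.01, -0.20, -0.03 and 0.01 from 0.5 to 24 h (SE 0.18 to 0.21). Irradiated and unirradiated libraries overlapped at each time, except that both Psme2 libraries at 0.5 h were above both unirradiated ones. Psme1 and Psme2 averaged 86.8 and 80.5 FPKM over the 14 libraries, while Psmb8, Psmb9 and Psmb10 averaged 16.9, 13.6 and 10.6 FPKM.

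**Figure D1:**
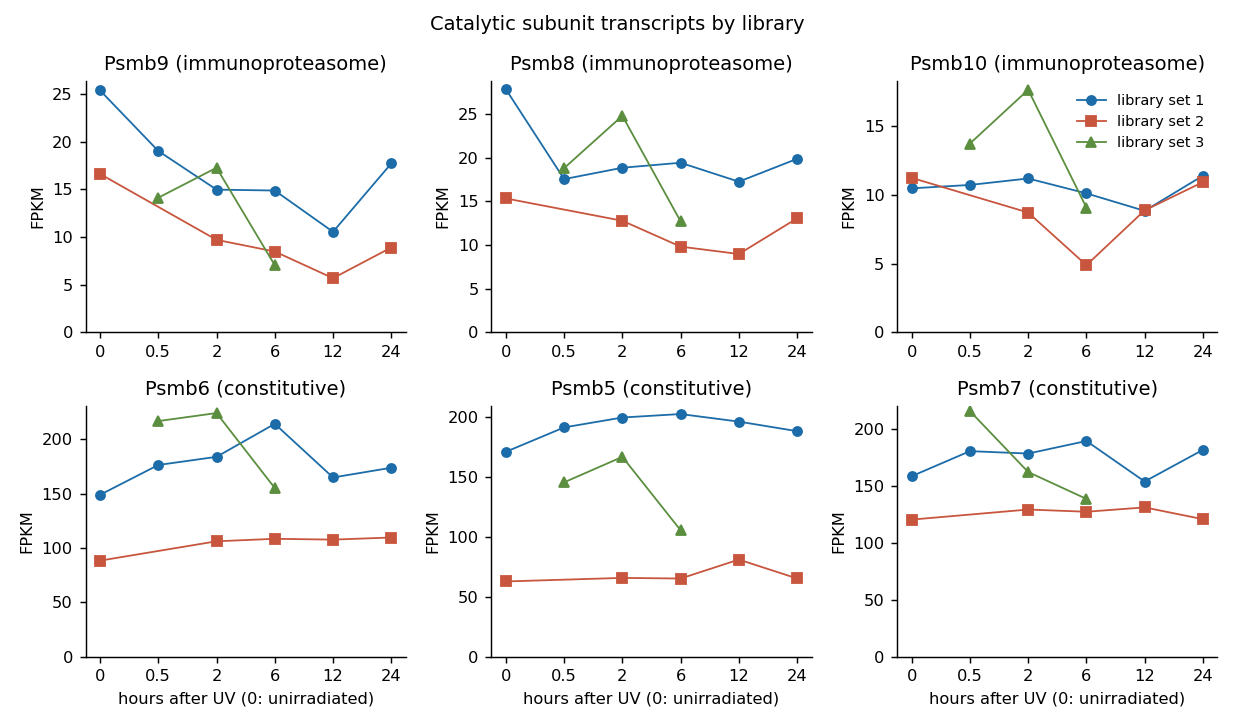
FPKM of the 3 inducible catalytic subunits (top) and of their constitutive counterparts (bottom) by hours after UV, with 0 for unirradiated skin. Each point is 1 library and each line joins the libraries of 1 set. Psmb9 is at its lowest in sets 1 and 2 at 12 h (10.5 and 5.67 FPKM), while Psmb6 in those libraries (165 and 108 FPKM) is above its unirradiated library (149 and 88.4 FPKM).

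None of the 3 constitutive catalytic subunits had a fitted change below 0 at any time. Psmb6, the caspase-like subunit, stood at 149 FPKM in unirradiated skin and 176, 184, 214, 165 and 174 FPKM from 0.5 to 24 h in set 1. In set 2 Psmb6 was at 88.4 FPKM in unirradiated skin and 106, 109, 108 and 109.7 FPKM from 2 to 24 h, and in set 3 at 217, 224 and 155 FPKM from 0.5 to 6 h. Its fitted changes were 0.36, 0.36, 0.27, 0.21 and 0.26 from 0.5 to 24 h (SE 0.16 to 0.19), and it was at 111% to 144% of its unirradiated library at each time in sets 1 and 2. Psmb5, the chymotrypsin-like subunit, stood at 171 FPKM in unirradiated skin and 192, 199.96, 203, 197 and 189 FPKM from 0.5 to 24 h in set 1. In set 2 Psmb5 was at 62.95 FPKM in unirradiated skin and 65.9, 65.4, 81.2 and 65.5 FPKM from 2 to 24 h, and in set 3 at 146, 167 and 106 FPKM from 0.5 to 6 h. Its fitted changes were 0.19, 0.24, 0.03, 0.28 and 0.10 from 0.5 to 24 h (SE 0.15 to 0.18), with set 2 far below set 1 throughout. Psmb7, the trypsin-like subunit, stood at 158 FPKM in unirradiated skin and 180.5, 178, 189, 154 and 182 FPKM from 0.5 to 24 h in set 1. In set 2 Psmb7 was at 120.4 FPKM in unirradiated skin and 129, 127, 131 and 121 FPKM from 2 to 24 h, and in set 3 at 216, 162 and 139 FPKM from 0.5 to 6 h. Its fitted changes were 0.36, 0.13, 0.08, 0.04 and 0.10 from 0.5 to 24 h (SE 0.15 to 0.17). None of the 3 passed the test at any time. Processed pseudogenes of Psmb5, Psmb6 and Psmb7 are annotated and Psme2 has a near copy, Psme2b, so reads may be shared and these levels are uncertain to that degree.

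Each inducible subunit can replace 1 constitutive subunit, and the 2 transcripts were compared as a ratio. As both values come from the same library, the ratio is free of the scaling of that library. In whole skin it cannot tell a change in the cells present from a change per cell, and subunit protein was not measured. As a share of Psmb6, Psmb9 was at 17.04% in unirradiated skin and 10.8%, 8.14%, 6.94%, 6.39% and 10.2% from 0.5 to 24 h in set 1. In set 2 Psmb9 was at 18.8% in unirradiated skin and 9.13%, 7.80%, 5.26% and 8.10% from 2 to 24 h, and in set 3 at 6.51%, 7.70% and 4.53% from 0.5 to 6 h. All 12 irradiated libraries, at 4.53% to 10.8%, lay below both unirradiated ones. Set 3 has no unirradiated library, and against set 1 its fitted log2 differences were -0.42 for Psmb9 and 0.07 for Psmb6. The low ratios of set 3 may thus be in part a difference between sets. As a share of Psmb5, Psmb8 was at 16.3% in unirradiated skin and 9.16%, 9.44%, 9.58%, 8.79% and 10.5% from 0.5 to 24 h in set 1. In set 2 Psmb8 was at 24.4% in unirradiated skin and 19.4%, 15.01%, 11.04% and 19.9% from 2 to 24 h, and in set 3 at 12.9%, 14.9% and 12.02% from 0.5 to 6 h. Each irradiated library of sets 1 and 2 was below the unirradiated one of its set, but the sets differed in level, and groups overlapped at 2 and 24 h. As a share of Psmb7, Psmb10 was at 6.61% in unirradiated skin and 5.94%, 6.28%, 5.34%, 5.75% and 6.28% from 0.5 to 24 h in set 1. In set 2 Psmb10 was at 9.34% in unirradiated skin and 6.74%, 3.83%, 6.77% and 9.05% from 2 to 24 h, and in set 3 at 6.37%, 10.9% and 6.55% from 0.5 to 6 h. In sets 1 and 2 this ratio was below that of unirradiated skin of the same set at each time, and it was lowest in set 2 at 6 h.

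The ratios varied over time by a permutation test with 100000 draws of the time labels within sets, adjusted by Benjamini-Hochberg over the 3 ratios. The adjusted p was 0.00255 for Psmb8 to Psmb5 (raw 0.00085), 0.0121 for Psmb9 to Psmb6 (raw 0.00804) and 0.0181 for Psmb10 to Psmb7 (raw 0.0181). Without the 0 h library of set 1 none of the 3 passed by the permutation test (adjusted p = 0.0965, 0.0619 and 0.137). The Psmb10 ratio also lost its call without the set 1 libraries at 2 h (0.155), 12 h (0.219) or 24 h (0.119), the set 2 library at 6 h (0.259), or the set 3 libraries at 2 h (0.0899) or 6 h (0.0533). When the labels were permuted over all libraries without the sets, the Psmb9 ratio kept its call (permutation adjusted p = 0.0345) and the other 2 did not (0.363 each).

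**Figure D2:**
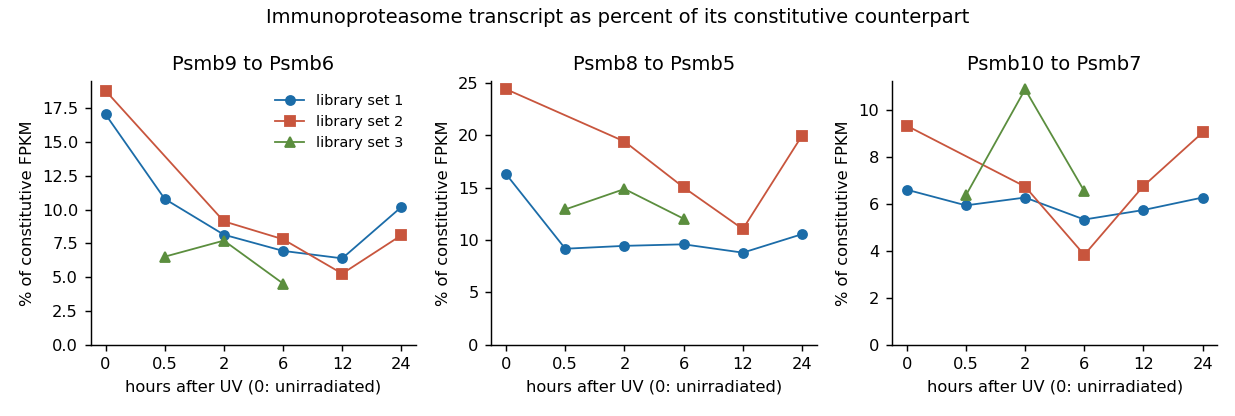
Inducible catalytic subunit as a percentage of the FPKM of its constitutive counterpart, by hours after UV with 0 for unirradiated skin. Each point is 1 library and lines join a set. For Psmb9 to Psmb6 the 12 irradiated libraries lie at 4.53% to 10.8%, below the unirradiated 17.04% and 18.8%.

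Genes of the 20S core and the 19S cap lay at or slightly above their unirradiated level, and none of them passed the test. Fitted values were above unirradiated skin for 31 of the 31 core and cap genes at 0.5, 2, 12 and 24 h and for 29 at 6 h, where Psma4 (-0.04) and Psma5 (-0.02) were the exceptions; of all genes 48.5%, 41.0%, 47.7%, 45.3% and 53.3% were above from 0.5 to 24 h. The count depended on scaling for the core: under quantile normalization 14, 10, 9, 11 and 13 of its 14 genes were above from 0.5 to 24 h, and of the 17 cap genes 17, 17, 17, 17 and 15. Under median-of-ratios scaling all 31 were above at each time. Median fitted changes of the core were 0.30, 0.19, 0.12, 0.14 and 0.19 from 0.5 to 24 h, of the cap 0.17, 0.15, 0.19, 0.18 and 0.21, of the immunoproteasome members -0.17, -0.04, -0.62, -0.27 and 0.01, and of all genes -0.01, -0.06, -0.02, -0.03 and 0.02. The 5 comparisons share the 2 unirradiated libraries, so their directions are not independent of each other, and neither are genes of 1 library.

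The lowest adjusted p of a core or cap gene was 0.334 at 0.5 h (Psmd6), 0.136 at 2 h (Psmd13), 0.0954 at 6 h (Psmd4), 0.244 at 12 h (Psmc2) and 0.352 at 24 h (Psmc2). Psmd4, a ubiquitin receptor of the cap, had a fitted change of 0.34 (SE 0.11) at 6 h. Without the 6 h library of set 3, limma called 5 members at 6 h, of 960 genes in all: Psmb9 (-0.81, adjusted p = 0.0152) and Psmb8 (-0.55, 0.0266) were lower, and Psmd4 (0.40, 0.0241), Psmb6 (0.41, 0.0400) and Psmb3 (0.38, 0.0435) were higher.

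**Figure D3:**
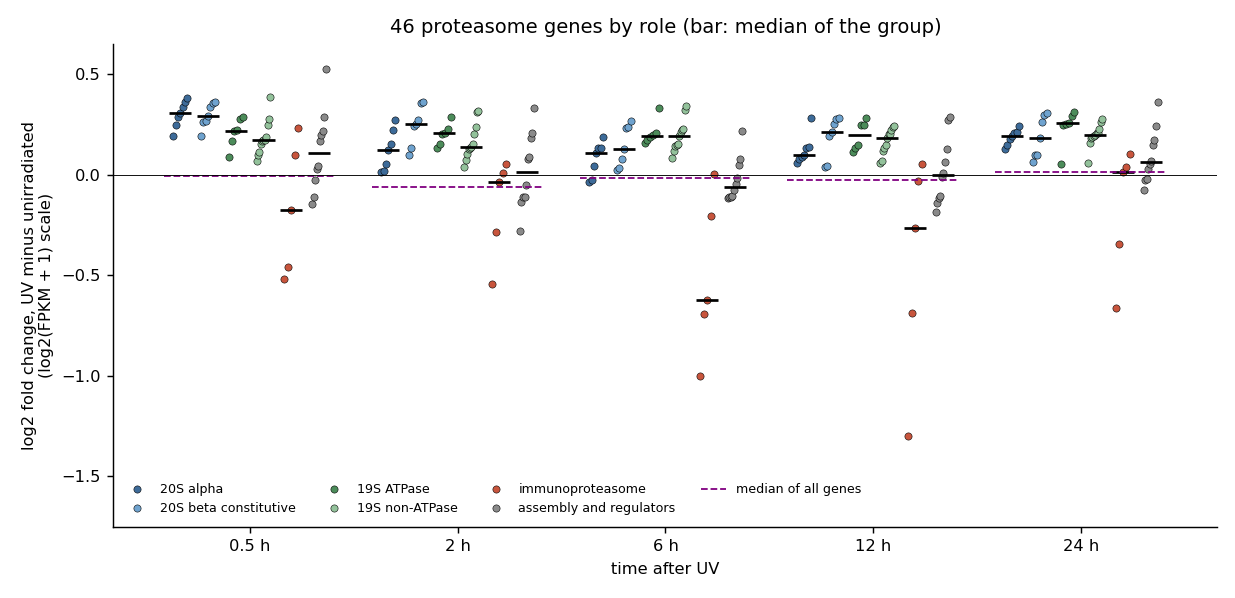
Fitted log2 fold changes, UV minus unirradiated skin, of the 46 proteasome genes by role and time. Each point is 1 gene, black bars are group medians and dashed lines the median of all 10980 genes; the immunoproteasome members spread from 0.01 down to -0.999 at 6 h, while the core and cap genes lie between -0.04 and 0.34.

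In the alpha rings, which form the gated ends of the barrel, mean levels over the 14 libraries ran between 80.9 FPKM for Psma5 and 153 FPKM for Psma2. These means pool sets that differ in level: Psma2 was the highest in 6 of the 14 libraries and Psma7, another alpha subunit, in 7, among them all 6 of set 1 at 164 to 205 FPKM. Psma2 stood at 154 FPKM in unirradiated skin and 175, 172, 181, 158 and 166 FPKM from 0.5 to 24 h in set 1. In set 2 Psma2 was at 111 FPKM in unirradiated skin and 137, 124, 130.3 and 137 FPKM from 2 to 24 h, and in set 3 at 199, 159 and 139 FPKM from 0.5 to 6 h. Its largest fitted change was 0.38 (SE 0.14) at 0.5 h, where both libraries were above both unirradiated ones. Psma5 stood at 75.6 FPKM in unirradiated skin and 87.2, 80.8, 87.5, 84.6 and 96.3 FPKM from 0.5 to 24 h in set 1. In set 2 Psma5 was at 66.3 FPKM in unirradiated skin and 62.5, 64.9, 72.1 and 72.98 FPKM from 2 to 24 h, and in set 3 at 115, 94.7 and 71.9 FPKM from 0.5 to 6 h. It had the largest change of the alpha genes at 24 h, 0.24 (SE 0.15), with 1 of the 2 libraries above both unirradiated ones. Psma6 stood at 111 FPKM in unirradiated skin and 126, 130.5, 139, 122 and 122 FPKM from 0.5 to 24 h in set 1. In set 2 Psma6 was at 89.3 FPKM in unirradiated skin and 96.3, 95.9, 88.2 and 96.8 FPKM from 2 to 24 h, and in set 3 at 123, 93.2 and 83.7 FPKM from 0.5 to 6 h. Its change at 24 h was the smallest of the 7, 0.13 (SE 0.14).

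The beta rings were the most abundant group, with means of 136 FPKM for Psmb5, the lowest in 7 of 14 libraries, to 285 FPKM for Psmb3, the highest in 12, both structural and catalytic members included. Psmb3, a structural subunit, stood at 277 FPKM in unirradiated skin and 328, 330.1, 376, 318 and 334 FPKM from 0.5 to 24 h in set 1. In set 2 Psmb3 was at 154 FPKM in unirradiated skin and 182, 192, 197 and 193 FPKM from 2 to 24 h, and in set 3 at 389, 434 and 280.1 FPKM from 0.5 to 6 h. Its fitted changes were 0.34, 0.36, 0.23, 0.28 and 0.30 from 0.5 to 24 h (SE 0.17 to 0.19). Psmb2, another structural subunit, stood at 193 FPKM in unirradiated skin and 209, 209.7, 224, 205 and 216 FPKM from 0.5 to 24 h in set 1. In set 2 Psmb2 was at 109 FPKM in unirradiated skin and 124, 136, 135 and 149.6 FPKM from 2 to 24 h, and in set 3 at 289, 313 and 206 FPKM from 0.5 to 6 h. It had the largest change of the beta genes at 24 h, 0.31 (SE 0.17), which did not pass. Psmb1, also structural, stood at 215 FPKM in unirradiated skin and 230.0, 226, 251, 214 and 229 FPKM from 0.5 to 24 h in set 1. In set 2 Psmb1 was at 157 FPKM in unirradiated skin and 161, 168, 167 and 161 FPKM from 2 to 24 h, and in set 3 at 306, 259 and 194 FPKM from 0.5 to 6 h. It had the smallest, 0.06 (SE 0.16).

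Of the cap's ATPases, which unfold substrates, Psmc5 was the most abundant and Psmc6 the least, at means of 188 and 69.9 FPKM. Psmc5 stood at 179.6 FPKM in unirradiated skin and 189, 193, 199, 189.6 and 183 FPKM from 0.5 to 24 h in set 1. In set 2 Psmc5 was at 149 FPKM in unirradiated skin and 184, 179, 173 and 158 FPKM from 2 to 24 h, and in set 3 at 235, 222 and 198 FPKM from 0.5 to 6 h. Its change at 24 h was 0.05 (SE 0.11), the smallest of the 6. Psmc6 stood at 72.6 FPKM in unirradiated skin and 82.7, 79.03, 83.2, 78.8 and 86.7 FPKM from 0.5 to 24 h in set 1. In set 2 Psmc6 was at 71.5 FPKM in unirradiated skin and 85.8, 84.1, 77.4 and 92.8 FPKM from 2 to 24 h, and in set 3 at 23.6, 24.2 and 36.1 FPKM from 0.5 to 6 h. The 3 libraries of set 3 were below all others, so levels of this gene cannot be compared across sets. Within sets 1 and 2 both libraries at 12 h and both at 24 h were above both unirradiated ones, and its fitted change at 24 h was the largest of the ATPases, 0.31 (SE 0.15).

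Of the 11 other cap subunits, Psmd8 had the highest mean, 210.2 FPKM, and Psmd14, the deubiquitinase that removes ubiquitin chains as substrates enter, the lowest, 61.0 FPKM. Psmd14 was lower in set 3 by a log2 difference of -0.83 against set 1, and in single libraries it was the lowest in 1 of 14, Psmd11 in 8, Psmd12 in 3 and Psmd1 in 2. Psmd8 stood at 202 FPKM in unirradiated skin and 207, 224, 244, 201 and 196 FPKM from 0.5 to 24 h in set 1. In set 2 Psmd8 was at 155 FPKM in unirradiated skin and 167, 181, 187 and 173 FPKM from 2 to 24 h, and in set 3 at 262, 279 and 266 FPKM from 0.5 to 6 h. Its fitted changes were 0.10, 0.15, 0.21, 0.13 and 0.06 from 0.5 to 24 h (SE 0.12 to 0.13). Psmd14 stood at 63.8 FPKM in unirradiated skin and 70.4, 67.9, 66.4, 67.8 and 74.03 FPKM from 0.5 to 24 h in set 1. In set 2 Psmd14 was at 60.1 FPKM in unirradiated skin and 72.3, 64.8, 61.4 and 69.4 FPKM from 2 to 24 h, and in set 3 at 36.98, 36.4 and 42.6 FPKM from 0.5 to 6 h. Its changes were 0.11, 0.13, 0.15, 0.06 and 0.21 from 0.5 to 24 h (SE 0.11 to 0.12), and set 3 was again lower than the other sets. Psmd6 stood at 78.6 FPKM in unirradiated skin and 98.3, 92.5, 96.9, 89.7 and 97.9 FPKM from 0.5 to 24 h in set 1. In set 2 Psmd6 was at 62.6 FPKM in unirradiated skin and 70.9, 75.7, 76.8 and 74.01 FPKM from 2 to 24 h, and in set 3 at 58.1, 42.2 and 56.02 FPKM from 0.5 to 6 h. It had the largest change of this group at 24 h, 0.28 (SE 0.11), and at 0.5 h, 0.38 (SE 0.12), although its set 3 library at 0.5 h was below both unirradiated libraries, which belong to other sets. Its value at 0.5 h thus rests on set 1 and on the set term.

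The 10 assembly factors and regulators were mixed, with 7, 5, 3, 5 and 7 of them above unirradiated skin from 0.5 to 24 h and none past the test. Psmg1, a chaperone that helps assemble the alpha ring, stood at 21.1 FPKM in unirradiated skin and 30.00, 27.3, 24.98, 26.2 and 29.1 FPKM from 0.5 to 24 h in set 1. In set 2 Psmg1 was at 17.6 FPKM in unirradiated skin and 19.3, 19.3, 21.5 and 21.7 FPKM from 2 to 24 h, and in set 3 at 37.3, 34.6 and 20.7 FPKM from 0.5 to 6 h. Its changes were 0.53, 0.33, 0.05, 0.29 and 0.36 from 0.5 to 24 h (SE 0.15 to 0.17), and both libraries at 0.5, 12 and 24 h were above both unirradiated ones. Psme3, the nuclear PA28 gamma activator, stood at 79.2 FPKM in unirradiated skin and 83.8, 79.3, 75.1, 84.9 and 81.2 FPKM from 0.5 to 24 h in set 1. In set 2 Psme3 was at 64.8 FPKM in unirradiated skin and 83.1, 75.7, 88.7 and 89.1 FPKM from 2 to 24 h, and in set 3 at 109, 111 and 102 FPKM from 0.5 to 6 h. Its changes were 0.20, 0.18, 0.08, 0.27 and 0.24 from 0.5 to 24 h (SE 0.11 to 0.12). Psmf1, which binds the core and has been described as an inhibitor, stood at 10.1 FPKM in unirradiated skin and 9.40, 10.3, 10.3, 8.80 and 8.49 FPKM from 0.5 to 24 h in set 1. In set 2 Psmf1 was at 9.74 FPKM in unirradiated skin and 7.68, 9.19, 8.97 and 10.3 FPKM from 2 to 24 h, and in set 3 at 13.5, 14.1 and 13.8 FPKM from 0.5 to 6 h. Its change at 24 h was -0.08 (SE 0.14), the lowest of the group. Psmd10, a chaperone of cap assembly, had the lowest mean level, was the lowest of the group in 4 of 14 libraries (Psmf1 in 8) and stood at 10.4 FPKM in unirradiated skin and 10.97, 10.8, 9.40, 10.1 and 11.2 FPKM from 0.5 to 24 h in set 1. In set 2 Psmd10 was at 9.55 FPKM in unirradiated skin and 9.68, 8.78, 10.9 and 11.5 FPKM from 2 to 24 h, and in set 3 at 13.2, 7.87 and 8.69 FPKM from 0.5 to 6 h. No change of it passed. The unrelated Psmc3ip averaged 8.41 FPKM and did not pass either.

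Around the proteasome, 29 of 34 listed ubiquitin-proteasome genes were in the table. At 0.5 h none of them passed, at 2 h 1 rose and 1 fell, at 6 h 1 rose, and at 12 and 24 h none passed; the list median was 0.06, 0.08, 0.12, 0.05 and 0.09 from 0.5 to 24 h. Nfe2l2, a transcription factor of the oxidative stress response that can induce proteasome genes, fell by 0.86 at 2 h (SE 0.13, limma adjusted p = 0.0125), to 17.7, 20.3 and 12.1 FPKM, against 31.7 and 37.5 FPKM in unirradiated skin. Akirin2, which in human cells carries proteasomes into the nucleus, rose at 6 h by 0.44 (SE 0.09, limma adjusted p = 0.0304), to 43.9, 38.8 and 37.5 FPKM, against 33.9 and 28.3 FPKM in unirradiated skin. In both of these comparisons all irradiated libraries were on 1 side of both unirradiated ones. The Nfe2l2 call was lost without either 0 h library (limma adjusted p = 0.0958 for set 1, 0.0829 for set 2). The Akirin2 call was lost without either 0 h library (limma adjusted p = 0.139 for set 1, 0.221 for set 2) or either 0.5 h library, the set 1 library at 2 h or the set 2 library at 6 h (0.0552 to 0.128). Each was also lost without the set term (limma adjusted p = 0.519 and 0.980) and with the muscle or the leukocyte covariate. At 2 and 6 h, 0 and 2 genes of the table passed with the muscle covariate, 12 and 22 with the leukocyte covariate, and 0 without the set term.

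Of 12 class I antigen processing genes, 0, 1, 3, 2 and 0 fell from 0.5 to 24 h and none rose. Nlrc5, a transactivator of class I genes that also acts on Psmb9 and Tap1, fell at 2, 6 and 12 h, with changes of -1.14, -0.97 and -1.19 (SE 0.21, 0.21 and 0.22; limma adjusted p = 0.02502, 0.0328 and 0.0161). Its level was 3.43 and 2.76 FPKM at 12 h, against 7.997 and 8.63 FPKM in unirradiated skin. Tap1 fell at 6 and 12 h, with changes of -0.49 and -0.54 (limma adjusted p = 0.0307 and 0.0241), and was at 24.2 and 18.1 FPKM at 12 h, against 37.1 and 25.7 FPKM in unirradiated skin. Tap2, the other transporter subunit, fell by 0.43 at 6 h (limma adjusted p = 0.0460). These calls too were lost in some fits that left out 1 library, in which the number of calls in the whole table changed as well. Tap2 kept its call in 2 of 14 fits that left out 1 library, those without the set 3 library at 2 or at 6 h, and its limma adjusted p reached 0.323 in the other 12. Tap1 lost its call at 6 h in 8 (either library at 0, 0.5 or 12 h, or sets 1 or 2 at 6 h; limma adjusted p up to 0.189) and at 12 h in 4 (either library at 0 or 12 h; up to 0.194). Nlrc5 lost its call at 2 h in 3 (set 1 at 2 h, or either 0 h library; limma adjusted p up to 0.1825). At 6 h Nlrc5 lost it in 7 (either library at 0 or 0.5 h, set 1 at 2 h, or sets 1 or 2 at 6 h; up to 0.264) and at 12 h in 4 (either library at 0 or 12 h; up to 0.164). No call of the 3 genes held without the set term or with the leukocyte covariate. At 2, 6 and 12 h, 0 genes of the table passed without the set term, and 12, 22 and 39 with that covariate. With the muscle covariate, where 0, 2 and 279 genes passed, the calls at 12 h held and those at 2 and 6 h did not. Tap2 was lost also under median-of-ratios scaling and without the intensity trend. In these settings the limma adjusted p reached 0.980 for Tap2, 0.949 and 1 for Tap1 at 6 and 12 h, and 0.426, 0.442 and 0.429 for Nlrc5 at 2, 6 and 12 h. The list median was -0.34, -0.29, -0.33, -0.28 and -0.13 from 0.5 to 24 h. Irf1, a transcription factor of interferon signalling, did not pass, with changes of -0.82, -0.55, -0.25, -0.24 and -0.11 from 0.5 to 24 h (SE 0.14 to 0.16; limma adjusted p = 0.117 at 0.5 h and 0.0638 at 2 h). Its libraries at 0.5 and 2 h, at 3.43 to 5.35 FPKM, all lay below both unirradiated ones, at 7.53 and 6.29 FPKM.

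Markers of several cell types were lower at the same times. Of 7 fibroblast markers 1, 4, 2, 5 and 5 fell from 0.5 to 24 h, with list medians of -1.13, -1.13, -1.06, -1.80 and -1.27. Of 8 keratinocyte markers 0, 1, 0, 1 and 2 fell, with list medians of -0.29, -0.61, -0.38, -0.38 and -0.26, and none of either list rose. Of 12 measured leukocyte markers of 14 listed, 1, 5, 3, 6 and 4 fell from 0.5 to 24 h, and their list medians were -0.92, -0.95, -0.88, -1.30 and -0.34. Their summed level was 111 and 115 FPKM at 12 h, against 353 and 342 FPKM in unirradiated skin. Over all times it ranged between 111 and 340.4 FPKM in irradiated libraries, and the 3 libraries of set 3 were at 276 to 340.4 FPKM. Cd74, the class II invariant chain, was the most abundant of them, at 76.0 and 72.9 FPKM at 12 h, against 267 and 222 FPKM in unirradiated skin. At 24 h 4 of the 12 markers had fitted changes above 0 and 8 below it, and 0 of them rose. Cd53 was then at 10.4 FPKM in set 2, against 5.07 FPKM in unirradiated skin, and at 1.43 against 1.72 FPKM in set 1. Nkg7, a marker of cytotoxic cells, was listed at 0 in 1 library at 12 h, and the other 11 markers were above 0 in all libraries. With the mean log2 level of these markers as a covariate, Psmb9 was at -1.15 at 6 h and -1.54 at 12 h and was not called (limma adjusted p = 0.416 and 0.543), and 22 and 39 genes of the table passed at those times, against 474 and 418 without the covariate. In that fit Psmb8 was at -0.62 and -0.57 at 6 and 12 h, against -0.69 at both times without the covariate. Psmb10 was at -0.21 and 0.38, against -0.62 and -0.27. Skeletal muscle markers had list medians of -0.02, 0.70, 0.62, 0.19 and -0.18 from 0.5 to 24 h. With their mean as a covariate Psmb9 was at -1.14 at 6 h (limma adjusted p = 0.200) and kept its call at 12 h (-1.31, limma adjusted p = 0.0195). In that fit 2 genes of the table passed at 6 h and 279 at 12 h, so the loss at 6 h was not particular to Psmb9. The part of fibroblasts and keratinocytes in the Psmb9 values was not tested, nor was that of leukocytes and muscle beyond these fits.

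**Figure D4:**
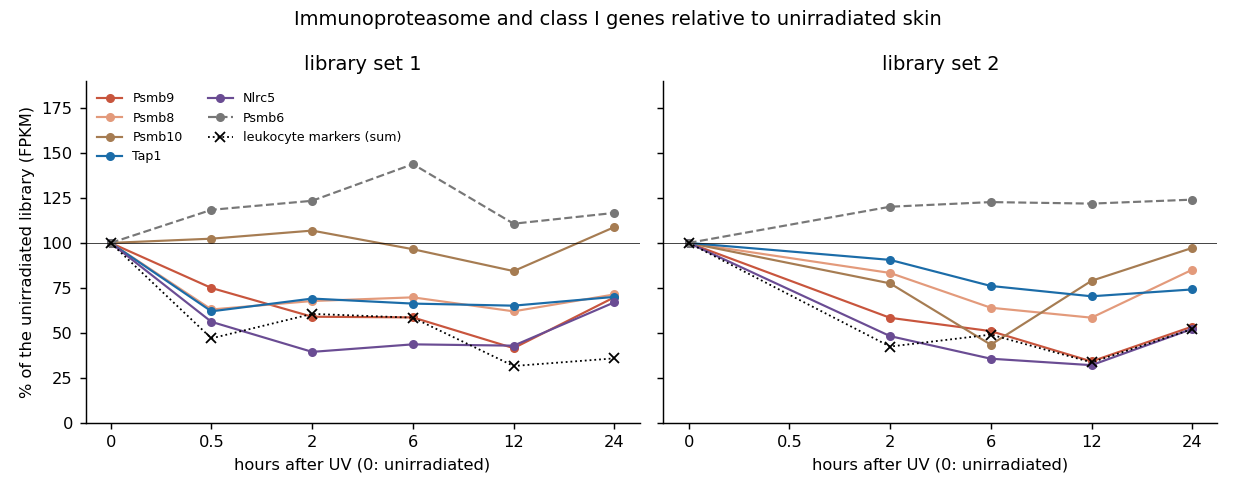
Level relative to the unirradiated library of the same set, in percent of FPKM, for the inducible subunits, Psmb6, Tap1, Nlrc5 and the summed leukocyte markers, in sets 1 and 2 (set 3 has no unirradiated library). Each point is 1 library; at 12 h Psmb9 is at 41.5% and 34.1%, Nlrc5 at 42.9% and 32.0%, Tap1 at 65.1% and 70.3% and Psmb6 at 111% and 122%.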

How the data were processed

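The authors deposited 1 table of FPKM values for 10980 genes in 14 libraries, on whose making the submitters' processing notes name TopHat2 2.1.0, Cufflinks 2.2.1 and mm10 without their roles; the annotation, the gene filter and the strandedness were not given in the sources used here. Columns were placed in time points by their headers, which carry no replicate number, and 0 value columns were left unmapped. Library sets were read from number format and header spelling; 1 unirradiated column was placed in set 2 by its mean Pearson correlation (0.964 with set 2, 0.888 with set 3). Deviations from the time means had r across genes of 0.411 to 0.895 within a set (28 pairs of libraries) and of -0.859 to 0.492 between sets. At times with 2 libraries the deviations are exact opposites, so this contrast is in part fixed in advance and cannot show that the sets are real. The set was kept as a block because members differed in level between sets. In sets 2 and 3 ratios of columns gave whole reads for 10954 of 10954 genes above 0 (relative tolerance 1e-11); these reads served for depth and for the counting intervals of Psmb9, and entered no fit.

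From the table, log2(FPKM + 1) was fitted with limma 3.58.1 in R 4.3.3 over all 10980 genes and 14 libraries (time and set as terms, intensity trend, 6 residual degrees of freedom, two-sided, Benjamini-Hochberg, threshold 0.05). Ratios were tested by permutation within sets (100000 draws, F of time after set). Tables of 10980 genes were simulated with noise drawn independently for each gene and library. There the 12 h comparison recovered 80% of genes shifted by 1 on the log2 scale, with 14 false calls. The 0.5 h comparison recovered 74%, with 18 false calls. Shifts smaller than 1 were not simulated, and the inferred sets were taken as true, so these rates may not hold for the deposited values. Alternatives were no set term, pseudocount 0.1, mean FPKM of at least 5, FPKM of at least 1 in at least 2 libraries, quantile and median-of-ratios scaling, no trend, muscle or leukocyte covariates, each library left out, values within sets, and, chosen after seeing the data, sets 1 and 2 alone. Members, roles, gene lists and marker lists were chosen with earlier results of these data known. Values of some listed genes are not reported here. Values per library were given for called members, exchange pairs, Psme1, Psme2 and, per group, the highest and lowest mean level and the largest change in either direction at 24 h; other genes named for an extreme p or a change of call (Psmd4, Psmd13, Psmc2, Psma4) were chosen after their values were seen. Gene positions are from GENCODE M21 (GRCm38) and promoter windows from RefSeq (GRCm38.p6).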

Additional observations from a re-analysis of the deposited data

How the results depend on the processing

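The permutation and limma results below are given as counts of called members at 2, 6, 12 and 24 h and over all times (0, 1, 1, 0 and 1 as reported), group medians and adjusted p of the ratios. Without the replicate block (the library set) 0 members were called at 6 h, at 12 h and over time; medians at 0.5 h were 0.52 for the core, 0.36 for the cap and 0.15 for the immunoproteasome members, and the permutation adjusted p was 0.363 for the Psmb8 and for the Psmb10 ratio. Over time 0 members were called with mean FPKM of at least 5, median-of-ratios scaling, no trend, the muscle or the leukocyte covariate. Genes of the table past that test were 367 of 9238, and 450, 534, 84 and 227 of 10980, in that order. Quantile normalization called 2 at 6 h (Psmb8 besides Psmb9), of 567 genes in all. The muscle covariate called 0 members at 6 h, of 2 genes in all. The leukocyte covariate called 0 members at 6 h and 0 at 12 h, of 22 and 39 genes in all. Under the leukocyte covariate medians were 0.28 for the core at 12 h, 0.28, 0.30 and 0.33 for the cap at 0.5, 2 and 12 h, and 0.20 and -0.23 for the immunoproteasome members at 0.5 and 6 h. Sets 1 and 2 alone, an alternative chosen after seeing the data, called 1, 3, 2 and 1 members at 2, 6, 12 and 24 h: Psmb9 at each of these times, Psmb8 at 6 and 12 h, and Psmd4 at 6 h. In that fit 153, 633, 577 and 306 of the 10980 genes passed at those times. The immunoproteasome median was -0.047 at 6 h within set 1 and -0.25 at 2 h within set 2. Without the 6 h library of set 2, 0 members and 2 genes of the table passed at 6 h, and without that of set 3, 5 and 960. Leaving out each library in turn gave 0 to 1 members at 2 h, 0 to 5 at 6 h, 0 to 2 at 12 h, 0 to 1 at 24 h and 0 to 2 over time. The medians ranged 0.17 to 0.51 for the core at 0.5 h, and for the immunoproteasome members -0.41 to 0.011 at 0.5 h, -0.87 to -0.40 at 6 h and -0.48 to -0.055 at 12 h. Permutation adjusted p ranged 0.00312 to 0.0965 for Psmb8 to Psmb5, 0.00903 to 0.0619 for Psmb9 to Psmb6 and 0.0058 to 0.259 for Psmb10 to Psmb7. The cause of these shifts was not tested. No called value changed sign under any alternative run. The filter at FPKM 1 in 2 libraries removed 0 genes.

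There were 2 libraries in 4 of 6 groups, and none unirradiated in set 3. The comparisons at 0.5 h thus rest on 1 within-set difference from unirradiated skin and, through the set term, on the library of set 3. Where 1 library of a pair is left out the other is assumed to vary like the rest. Depth in set 1 is unknown; in sets 2 and 3 the lowest member, Psmb9, had 60 to 221 reads.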
